A study of Mus musculus with 2 samples.

Results

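The 9 genes described here encode receptors and ligands of 2 growth factor families. They are the vascular endothelial growth factor (VEGF) receptors Flt1 and Kdr, the co-receptors Nrp1 and Nrp2, the VEGF ligands Vegfa and Vegfb, and the platelet-derived growth factor (PDGF) ligands Pdgfa, Pdgfb and Pdgfc. They were taken by symbol from the 32524 genes listed for each library, and all 9 had UMIs (unique molecular identifiers, the counted transcripts) in the cells kept. The genes were selected on earlier results of these same data, in which the Flt1 level led a cluster and differed between the libraries, so the values below are a description.

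Synovial CD45+CD11b+ cells, the gate for myeloid leukocytes, had been sorted from the hind paws of arthritic C57BL/6 wild-type mice and sequenced with a droplet 3′ single-cell kit. The mice were 7 to 10 weeks old when the experiments began. One group had received 1 mg of β-glucan, a fungal cell wall sugar that trains innate immune cells, by intraperitoneal injection, and the other PBS, in both cases 7 days before arthritis was induced. Cells of both groups were taken on day 17 of arthritis. The study and the series design name K/BxN serum transfer arthritis, whereas the labels of the samples describe arthritis induced with antibodies and LPS, and the methods name more than 1 source of β-glucan. Each group was 1 library of 4 pooled mice with no record of which cell came from which mouse, so no test between the groups was possible and every interval below covers counting error only.

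Of 7196 barcodes in β-glucan cells and 5760 in PBS cells, 5696 and 4553 had at least 500 genes and at most 10% of UMIs from mitochondrial genes. These cells had a median of 12457.5 and 14475 UMIs, and 2 of their barcodes occurred in both libraries. Clustering, from which the 9 genes were left out, gave 21 clusters, called here by number and their 2 leading genes. A compartment of 12 clusters, termed the main myeloid compartment, held 81.1% of the β-glucan and 80.7% of the PBS cells. It took in the clusters that scored highest for macrophage or antigen-presenting cell markers. Clusters 7 (Fxyd2 and Cav1) and 19 (Plac8 and Chil3) had no name and entered with fewer than 3 detected markers of another class. They scored highest for osteoclast markers (1 detected) and neutrophil markers (2 detected). The sort was not pure, and B cells, T cells, stromal cells and 33 endothelial cells formed clusters of their own.

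VEGF ligands act on blood vessels through the receptor tyrosine kinases encoded by Flt1 and Kdr. FLT1 binds VEGFA tightly but signals weakly, it occurs on monocytes as well as endothelium, and a soluble form traps the ligand. KDR carries most of the signal for vessel growth. Neuropilins bind semaphorins and VEGF and work beside other receptors. PDGF ligands act on fibroblasts and mural cells, and Pdgfc encodes a form that is activated by cleavage outside the cell. New vessels and fibroblast growth are features of the inflamed synovium.

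Flt1 and Pdgfc had the largest differences in either direction among these genes, so their promoters are shown first. Each is the 250 bases before the canonical start that GENCODE annotates in GRCm39, 5′ to 3′ on the gene's own strand, with letters of any searched motif in capitals.
Flt1 (chromosome 5, 147662822 to 147663071, minus strand): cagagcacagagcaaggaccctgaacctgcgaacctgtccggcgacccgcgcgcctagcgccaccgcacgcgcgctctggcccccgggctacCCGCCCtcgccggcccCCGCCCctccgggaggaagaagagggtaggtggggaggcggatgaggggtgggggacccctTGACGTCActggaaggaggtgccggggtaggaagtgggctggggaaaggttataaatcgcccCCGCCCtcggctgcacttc
Pdgfc (chromosome 3, 80943418 to 80943667, plus strand): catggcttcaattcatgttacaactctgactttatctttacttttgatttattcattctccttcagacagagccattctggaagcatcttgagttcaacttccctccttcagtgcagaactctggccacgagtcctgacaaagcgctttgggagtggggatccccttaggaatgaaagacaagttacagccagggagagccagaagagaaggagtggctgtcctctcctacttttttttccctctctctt

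The Flt1 sequence held a cAMP response element (TGACGTCA), a motif found on either strand in 1.70% of 21770 promoters of the same length, and was the only one of the 9 that held it. It also held the Sp1 motif (GGGCGG, here read on the other strand), as did 7 of the 9 members and 36.3% of all promoters. The Pdgfc sequence held none of the 7 motifs searched. The hypoxia response core ACGTG occurred in the Nrp1 and Vegfb promoters and in 17.0% of all, and the E-box CACGTG, which contains that core, in Vegfb and in 6.26%. CATGTG, the AP-1 motif TGACTCA and the PU.1 motif GAGGAAGT were found in 0 of the 9 and in 10.4%, 4.02% and 2.08% of all promoters. A match describes letters in this window and is not evidence of binding.

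Over the main myeloid compartment, 7 of the 9 genes reached a mean of 5 CPM (the UMIs of a gene scaled to a total of 1000000) in the 2 libraries. Nrp1 and Pdgfc were at least 25% higher with β-glucan, Flt1 was at least 20% lower (a ratio of 0.8 or less), and the remaining 4 lay within these margins. Among all 9811 genes at that level, 3.83% were higher and 3.09% lower past the same margins. Flt1 had the 4th lowest ratio of the 9811, Pdgfc the 8th highest and Nrp1 the 30th highest. The contrast had informed the choice of genes, so nothing is read from these counts. Vegfa and Kdr were below the level for counting, and their values are given with that limit.

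**Figure D1:**
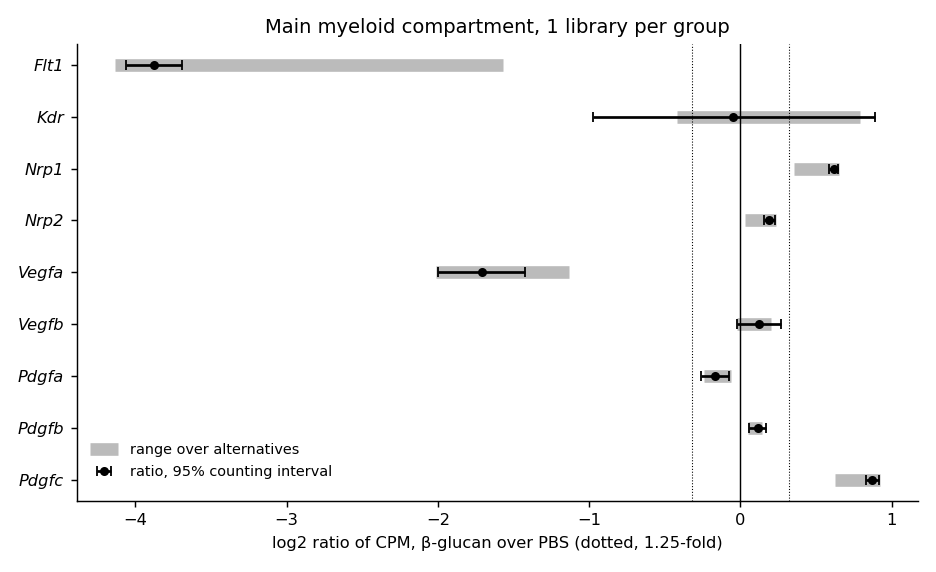
Log2 ratio of CPM (β-glucan over PBS, horizontal axis) of each gene in the main myeloid compartment; points with bars are the ratio and its 95% counting interval, grey bars the range over 28 alternative settings, dotted lines the margins of 25% higher and 20% lower. Flt1 at -3.88 and Vegfa at -1.71 lie left of every alternative of the other 7 genes, and Pdgfc at 0.87 and Nrp1 at 0.62 lie to the right of the dotted line.

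Flt1, the gene for VEGF receptor 1, was the member that differed most. The compartment held 255 Flt1 UMIs in β-glucan cells and 3459 in PBS cells. These were 3.90 CPM (95% Poisson interval 3.43 to 4.41) and 57.2 CPM (55.3 to 59.1), a log2 ratio of -3.88 (-4.06 to -3.69), or 14.7-fold more in the PBS library. Few cells carried most of the PBS total. In that library 152 of 3674 compartment cells had at least 5 Flt1 UMIs and gave 91.7% of the gene's compartment UMIs. The β-glucan library had 11 such cells of 4618, which gave 38.8%. With every cell thinned to 3000 UMIs, 4.64% of PBS cells (95% Clopper-Pearson interval 3.97 to 5.38) and 0.698% of β-glucan cells (0.475 to 0.989) had a Flt1 UMI. This left out 159 and 177 shallower cells. Without thinning the shares were 8.49% and 2.34%, and in B cells, which served as a background for free RNA, 1.22% and 1.54%. The B cells pool cluster 9 (Igkc and Cd79a) and cluster 16 (Bank1 and Pax5). Macrophage markers were at 7956 CPM in β-glucan and 6307 CPM in PBS cells of cluster 16, against 1010 and 840 CPM in cluster 9. Their part in the background shares was not tested. At 3000 UMIs 0 of 227 PBS and 0 of 305 β-glucan B cells had a UMI, which allows shares of up to 1.32% and 0.984%. The β-glucan share over the whole compartment was therefore not distinguishable from background. This does not hold for cluster 3, whose β-glucan share at that depth, given below, was above the limit. There 9 of 368 β-glucan cells had at least 5 Flt1 UMIs.

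Across clusters, Flt1 was highest in the endothelial cells (cluster 20, Fabp4 and Adgrl4), at 1306 CPM in 21 β-glucan cells and 1626 CPM in 12 PBS cells. There the log2 ratio was -0.32 (-0.55 to -0.08), against -3.88 in the compartment, and the difference between the 2 ratios was not tested. In these endothelial cells macrophage markers were at 2504 CPM in β-glucan and 617 CPM in PBS cells. Their median depth was 11872 and 8424 UMIs. The part of these markers and of depth in the ratio was not tested. The next highest level was that of cluster 17 (Arg1 and Slc7a2), which held 73 PBS cells and 0 β-glucan cells. Its Flt1 level was 651 CPM (616 to 687), and 66 of its 73 cells had a UMI. Arg1 encodes arginase 1, a marker of alternatively activated macrophages. Cluster 17 was named macrophage, but at a resolution of 1 the Arg1 cluster was named antigen-presenting. Macrophage markers in cluster 17 were at 8522 CPM, against 10993 CPM over all PBS compartment cells. Antigen-presenting cell markers were at 16593 CPM, against 11614 CPM. With 1 library per group, a cluster made of 1 library alone may be that library rather than a cell state.

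Cluster 3 (Ccl17 and Cd209a), with markers of antigen-presenting cells, held the largest share of the gene's UMIs in the PBS library, 43.4%, beside 30.4% in cluster 17. Its cells had 149 UMIs in β-glucan (18.7 CPM) and 1886 in PBS cells (157 CPM), a log2 ratio of -3.07 (-3.33 to -2.83). At 3000 UMIs per cell, 3.80% of β-glucan cells and 16.1% of PBS cells of cluster 3 had a Flt1 UMI. The proliferating cells of cluster 15 (H1f5 and Top2a), outside the compartment, had 1 UMI in 47 β-glucan cells and 523 in 68 PBS cells, a log2 ratio of -8.18 (-13.49 to -5.70). The 2 highest PBS cells held 132 and 93 of the 523 UMIs. Other markers differed there too, with neutrophil markers at 5132 CPM in β-glucan and 866 CPM in PBS cells and antigen-presenting cell markers at 19463 and 26348 CPM, and their part in the ratio was not tested. Cluster 19 (Plac8 and Chil3), with 20 and 22 cells, had 44.9 and 107 CPM. In clusters 3 and 15 a minority of PBS cells held most of the UMIs, 94.9% in 90 of 514 cells and 96.4% in 16 of 68. Their Arg1 levels were 276 and 701 CPM, against 27.3 and 25.8 CPM in the other PBS cells of these clusters. An Arg1 UMI was found in 32 of the 90 and 5 of the 16 cells, against 42 of 424 and 7 of 52 others. Most of the cells with at least 5 Flt1 UMIs there thus had no Arg1 UMI. At a finer clustering (resolution 1) the Arg1 cluster took in 134 PBS cells and 0 β-glucan cells, and a cluster led by Cd209a and Clec4b1 then had 18.7 CPM of Flt1 in β-glucan and 79.7 CPM in PBS cells. Stromal cells, at 18.5 and 17.6 CPM, gave a log2 ratio of 0.07 (-0.62 to 0.76). Of their Flt1 UMIs, 67.4% came from 3 of 139 β-glucan cells and 68.75% from 3 of 90 PBS cells. The marker differences given below for these stromal cells hold here too, and their part in the ratio was not tested.

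Of the compartment clusters, 9 had 100 or more cells from both libraries. In all 9 Flt1 was lower with β-glucan, from -3.56 to -0.33 on the log2 scale, and the counting interval lay below 0 in 5 of them. Of the 9811 genes, 4.49% were lower and 7.06% higher in every one of these clusters. Without clusters 3 and 17, which held most of its UMIs, Flt1 was below the level for counting, at 1.84 CPM in β-glucan and 5.47 CPM in PBS cells, and its log2 ratio was -1.57 (-1.91 to -1.24). This alternative was chosen after the data had been seen. With cluster 17 alone left out the ratio was -3.23. Clusters 0, 5 and 8, rich in macrophage genes, had 1 to 9 Flt1 UMIs per library, and no difference was detectable in clusters 2, 4, 5 and 8. A PBS level of 77.8 CPM in the natural killer cells of cluster 14 came from 44 UMIs in a single cell.

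**Figure D2:**
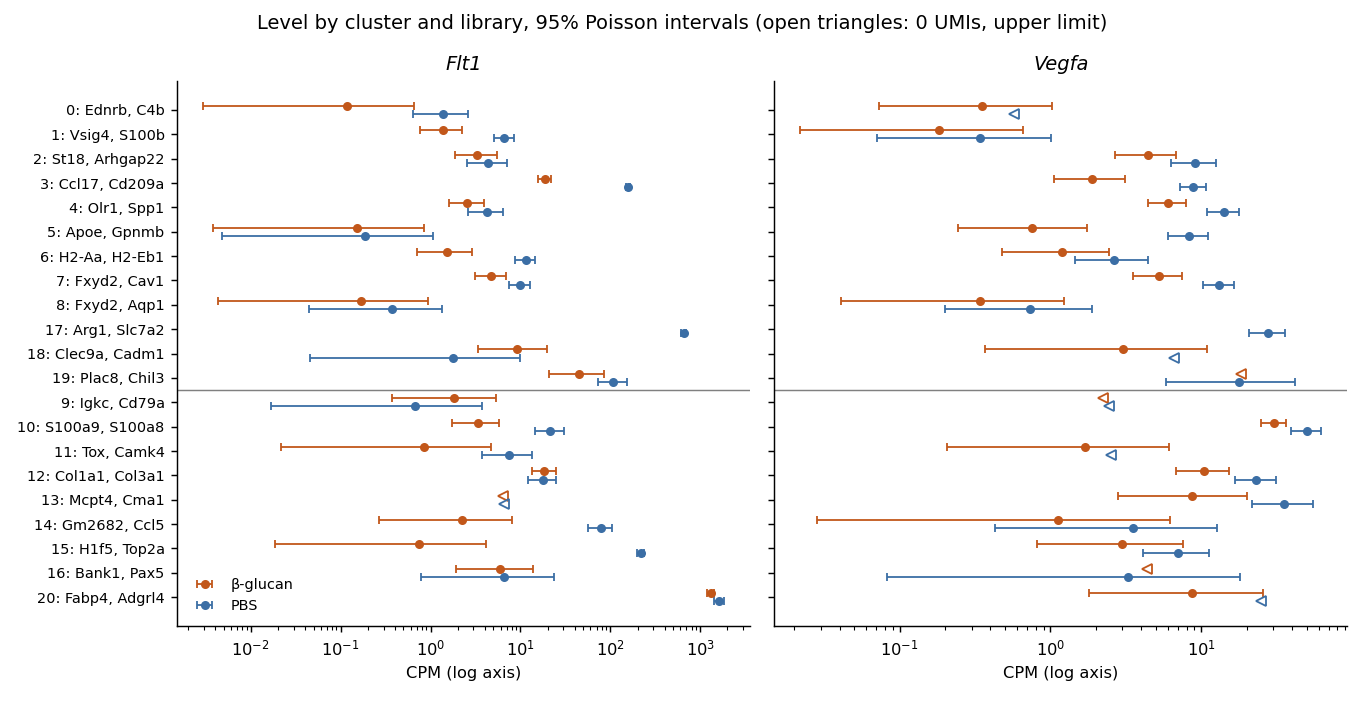
CPM (log axis) of Flt1 and Vegfa in each cluster, by library, with 95% Poisson intervals; open triangles mark clusters with 0 UMIs at the upper limit, and clusters below the grey line lie outside the main myeloid compartment. Flt1 is at 1306 and 1626 CPM in the endothelial cluster 20 and at 651 CPM in cluster 17, which has PBS cells only, and Vegfa is at 30.4 and 50.0 CPM in the neutrophils of cluster 10, whose interval over both libraries overlaps that of cluster 17.

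The Flt1-positive compartment cells were not endothelial by their markers. The 152 PBS cells with at least 5 Flt1 UMIs had 3 Kdr UMIs in all and 34 UMIs of the 10 endothelial markers (7.78 CPM), whereas the 10 such endothelial cells of that library had 36 Kdr UMIs and 6957 CPM of these markers. In cluster 17, 6 of the 10 endothelial markers were at 0, and over the compartment their summed level was 7.06 CPM in β-glucan and 6.38 CPM in PBS cells. Of the 152 cells, 88 had an Arg1 UMI, and the Arg1 level over all 152 was 1539 CPM, against 34.4 CPM in the other PBS compartment cells. Cluster 17, which Arg1 leads, gave 50 of the 152 cells, all with an Arg1 UMI, and 5876 of the 6731 Arg1 UMIs. The contrast therefore largely restates how that cluster was defined. The 152 cells were also deeper, with a median of 27790.5 UMIs against 15189.5, and the part of depth in the count was not tested beyond the thinning. The counts are per gene and give no separate values for the membrane and soluble forms of FLT1.

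Kdr, the gene for the main signalling receptor of VEGFA, was mostly found in the endothelial cluster. It had 97 UMIs there in β-glucan cells and 42 in PBS cells, or 283 and 285 CPM, and the log2 ratio was -0.01 (-0.55 to 0.55). These were 75.1% of all Kdr UMIs in the kept cells. The whole compartment had 22 and 21 Kdr UMIs, 0.336 and 0.347 CPM, with a log2 ratio of -0.05 (-0.98 to 0.89), so a difference of either sign up to nearly 2-fold could not be seen at this depth. Of 4441 thinned β-glucan cells 5 had a Kdr UMI, and of 3515 PBS cells 2.

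Nrp1, which encodes neuropilin 1, was the co-receptor that differed past the margin. The compartment held 27574 UMIs in β-glucan and 16626 in PBS cells, or 421 CPM (416 to 426) and 275 CPM (271 to 279). The log2 ratio was 0.62 (0.59 to 0.64), a ratio of 1.53. Nrp1 was higher with β-glucan in all 9 clusters counted, with every interval above 0. The ratio was smallest in cluster 8 (Fxyd2 and Aqp1), at 0.19 (0.08 to 0.29), and largest in cluster 1 (Vsig4 and S100b), at 0.64 (0.58 to 0.71). Cells with a Nrp1 UMI were 60.8% in β-glucan (59.3 to 62.2) and 47.1% in PBS cells (45.4 to 48.7) at 3000 UMIs, and 86.0% and 81.6% unthinned. B cells had 8.52% and 4.41% at the thinned depth, so the compartment shares were far above that background.

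The level of Nrp1 was graded across clusters of the compartment. It was 651 CPM in cluster 0 (Ednrb and C4b), 547 CPM in cluster 5 (Apoe and Gpnmb), 427 CPM in cluster 1, 403 CPM in cluster 6 (H2-Aa and H2-Eb1) and 372 CPM in cluster 4 (Olr1 and Spp1). The intervals of these 5 did not overlap. The endothelial cells, at 728 CPM (654 to 807), could not be ordered against cluster 0. Cluster 7 (Fxyd2 and Cav1) at 149 CPM, cluster 3 at 133 CPM and cluster 17 at 115 CPM were at the low end of the compartment, and the B cells of cluster 9 were lowest, at 34.9 CPM. The B cells of cluster 16, which carried more macrophage markers, were at 245 CPM (217 to 275).

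Nrp2, the gene for neuropilin 2, differed less. Its compartment level was 239 CPM (15626 UMIs) in β-glucan and 209 CPM (12641 UMIs) in PBS cells, a log2 ratio of 0.19 (0.16 to 0.23) and within the margin of 25%. It was higher in 8 of the 9 clusters, from 0.07 in cluster 8 to 0.33 in cluster 7, and lower in cluster 3 alone, where 926 and 1801 UMIs gave 116 and 150 CPM, with a log2 ratio of -0.37 (-0.49 to -0.26). Its level was highest in cluster 0, at 323 CPM (314 to 332), then in cluster 1, at 291 CPM (283 to 298). Clusters 2, 5 and 8, at 243 to 254 CPM, had overlapping intervals.

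**Figure D3:**
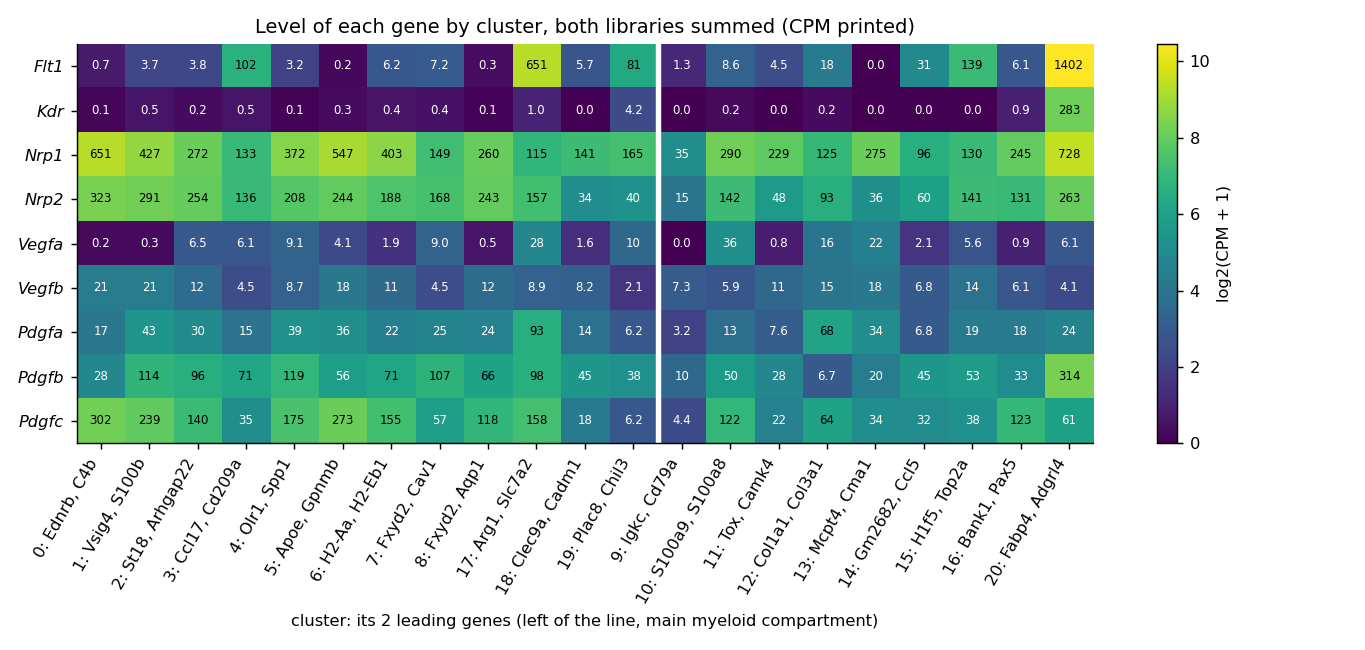
Level of each gene (rows) in each of the 21 clusters (columns, with their 2 leading genes), both libraries summed; colour is log2(CPM + 1), the printed numbers are CPM, and clusters right of the white line lie outside the main myeloid compartment. Kdr stands out in the endothelial cluster 20 alone, Flt1 in clusters 20 and 17, and Nrp1, Nrp2 and Pdgfc all reach high levels in the macrophage clusters 0, 1 and 5.

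Vegfa, the main VEGF ligand of vessel growth, was scarce and lower with β-glucan. The compartment held 136 UMIs in β-glucan and 410 in PBS cells, or 2.08 CPM (1.74 to 2.46) and 6.78 CPM (6.14 to 7.47). The log2 ratio was -1.71 (-1.996 to -1.422), 3.26-fold more in the PBS library. The mean of 4.43 CPM was just under the limit of 5 CPM for counting, and with a limit of 1 CPM Vegfa joined Flt1 as the second gene counted lower. Thinned cells with a Vegfa UMI were 0.518% (0.329 to 0.776) in β-glucan and 1.51% (1.13 to 1.97) in PBS cells, and 0 of 305 and 0 of 227 B cells. These allow shares of up to 0.984% and 1.32%. The β-glucan share lay below its limit, and the PBS interval reached below its own. At the thinned depth neither share was therefore clearly distinguishable from background. By level, unthinned B cells had 0 CPM (0 to 1.48) in β-glucan and 0.55 CPM (0.01 to 3.07) in PBS cells. The compartment intervals given above lay higher than these in both libraries.

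In 8 of the 9 clusters counted Vegfa was lower with β-glucan, and in 5 the interval lay below 0. Cluster 5 had 5 and 44 UMIs, a log2 ratio of -3.46 (-5.16 to -2.13), cluster 3 had 15 and 106, at -2.23 (-3.12 to -1.45), and cluster 7 had 31 and 73, at -1.33 (-1.98 to -0.70). In cluster 0, the exception, 3 and 0 UMIs gave no measurable level. Outside the compartment, the neutrophils of cluster 10 (S100a9 and S100a8) had 30.4 CPM in β-glucan and 50.0 CPM in PBS cells, and the log2 ratio was -0.72 (-1.16 to -0.27). In the same neutrophils the neutrophil markers were at 22059 and 43658 CPM, the macrophage markers at 8086 and 4589 CPM and the median depth at 9564 and 4577 UMIs. Mast cells and basophils of cluster 13, at 8.63 and 35.5 CPM, and stromal cells of cluster 12, at 10.4 and 23.1 CPM, were also lower with β-glucan. The stromal ratio was -1.15 (-1.91 to -0.41). Beside these, cluster 13 had macrophage markers at 3329 and 1446 CPM and neutrophil markers at 1218 and 139 CPM, and cluster 12 had mural cell markers at 1826 and 407 CPM. The part of these markers and of depth in the 3 ratios was not tested. Over both libraries, neutrophils at 36.2 CPM (31.1 to 41.8) and cluster 17 at 27.6 CPM (20.9 to 35.9) could not be ordered.

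Vegfb, whose product binds FLT1 but not KDR, showed no difference beyond counting error over the whole compartment. Its levels were 13.0 CPM (850 UMIs) and 11.9 CPM (722 UMIs) in the compartment, a log2 ratio of 0.12 (-0.02 to 0.27), and the interval lay within the margin of 25%. It was higher in 6 and lower in 3 of the 9 clusters, from -0.61 in cluster 4 (-1.17 to -0.06) to 0.55 in cluster 2 (-0.06 to 1.19), and the interval of cluster 4 alone lay to 1 side of 0. Clusters 0 and 1 had its highest values, 20.7 and 20.6 CPM, which did not differ beyond their intervals. Nor could they be ordered against cluster 5, at 17.5 CPM (15.2 to 20.1), or cluster 13, at 17.5 CPM (10.7 to 27.0). The same held for the stromal cells of cluster 12, at 15.3 CPM (11.85 to 19.49).

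Pdgfc, the ligand whose product is cleaved outside the cell to bind PDGF receptor alpha, was the member most above PBS. The compartment held 13786 UMIs in β-glucan and 6965 in PBS cells, or 211 CPM (207 to 214) and 115 CPM (112 to 118). The log2 ratio was 0.87 (0.83 to 0.91), a ratio of 1.83. Pdgfc was higher with β-glucan in all 9 clusters, each with its interval above 0, from 0.33 (0.19 to 0.47) in cluster 6 to 1.246 (0.998 to 1.500) in cluster 7. Cells with a Pdgfc UMI were 36.2% (34.8 to 37.6) against 24.4% (22.9 to 25.8) at 3000 UMIs and 61.3% against 51.0% unthinned, and B cells had 4.26% and 1.76% at the thinned depth.

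The level of Pdgfc followed much the same clusters as Nrp2. It was highest in cluster 0, at 302 CPM, then cluster 5, at 273 CPM, and cluster 1, at 239 CPM, with no overlap of their intervals. It was 34.8 CPM in cluster 3, 4.44 CPM in the B cells of cluster 9 and 123 CPM in those of cluster 16. Over the 21 clusters, Nrp2 and Pdgfc had the closest pattern of any 2 members, with a Pearson r of 0.88 of log2(CPM + 1). These clusters share libraries and depth, and the value is a description.

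In neutrophils, among other cells outside the compartment, the ratios of Nrp1 and Pdgfc were larger in value than in the compartment. Nrp1 was 368 CPM in β-glucan and 105 CPM in PBS cells, a log2 ratio of 1.80 (1.56 to 2.05), and Pdgfc was 158 and 33.3 CPM, at 2.25 (1.83 to 2.70). The differences in depth, in the 10 macrophage markers and in the 8 neutrophil markers given with Vegfa hold for these cells too, and all 10 macrophage markers had UMIs in both libraries. The part of macrophage RNA or depth in these 2 ratios was not tested. Outside the compartment both genes were higher with β-glucan in every cluster. Nrp1 also exceeded its compartment ratio of 0.62 in clusters 9 (1.49), 14 (1.55) and 15 (1.14). It was below 0.62 in clusters 11, 12, 13, 16 and 20. Pdgfc also exceeded its 0.87 in clusters 11 (T cells, 1.88), 13 (2.15), 14 (1.045), 15 (1.47) and 20 (1.95). It was below 0.87 in clusters 9, 12 and 16. A shift of the library as a whole was not tested.

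**Figure D4:**
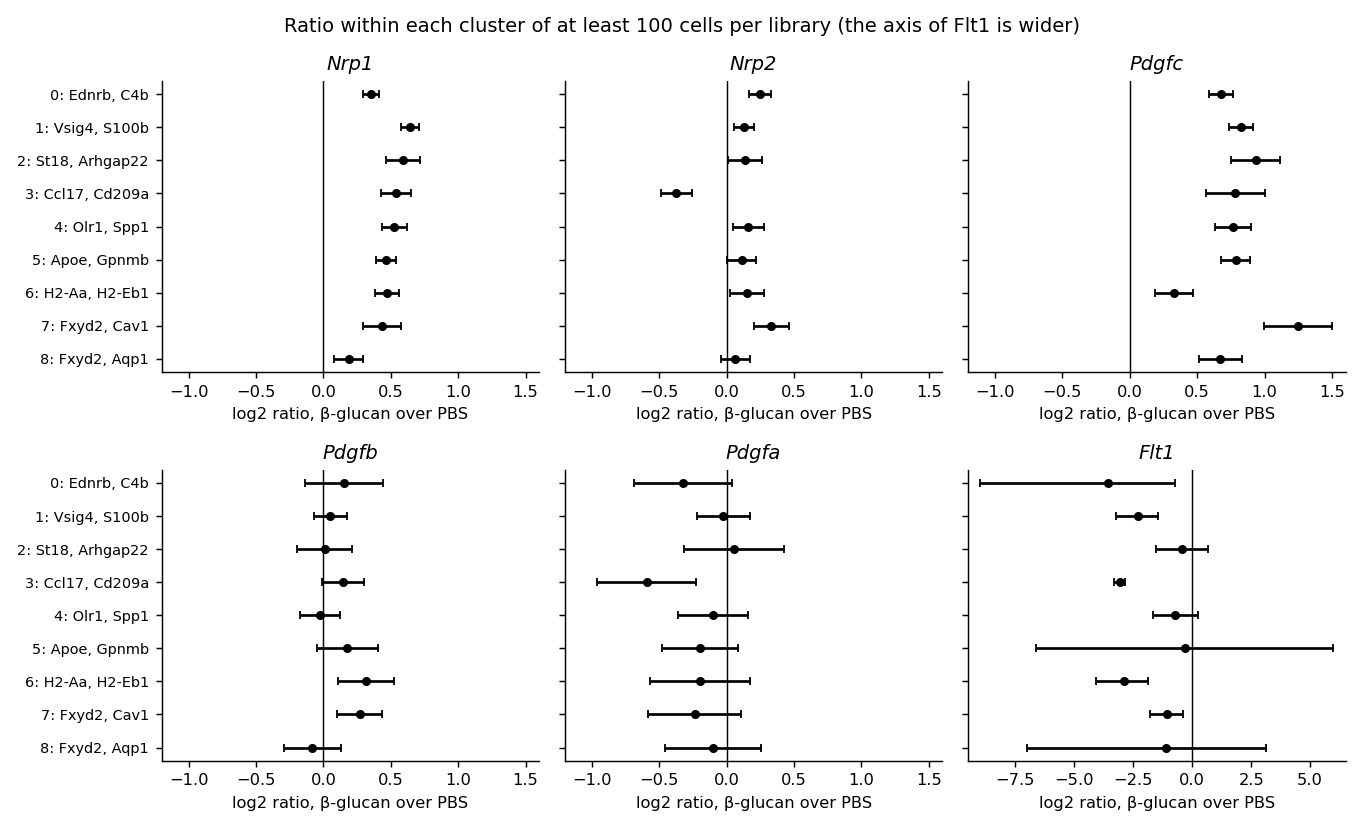
Log2 ratio of CPM (β-glucan over PBS, horizontal axis) with 95% counting intervals for 6 genes in each of the 9 compartment clusters that had 100 or more cells from both libraries. Every point of Nrp1 and Pdgfc lies right of 0 with its interval, Nrp2 lies left of 0 in cluster 3 alone, and every point of Flt1 lies left of 0 on its wider axis.

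Pdgfa and Pdgfb, the genes for PDGF chains A and B, lay within the margins. Pdgfa was 27.2 CPM (1778 UMIs) in β-glucan and 30.5 CPM (1847 UMIs) in PBS cells, a log2 ratio of -0.17 (-0.26 to -0.07). It was lower in 8 of the 9 clusters, and only in cluster 3, at -0.59 (-0.96 to -0.23), did the interval lie below 0. Without cluster 17 its compartment ratio was -0.06. The highest Pdgfa level was that of cluster 17, 92.7 CPM (80.0 to 107), followed by the stromal cells of cluster 12, at 68.5 CPM (60.9 to 76.8). In those stromal cells the direction was the opposite of that in the compartment, with 79.8 CPM in β-glucan and 52.9 CPM in PBS cells, a log2 ratio of 0.59 (0.23 to 0.96). The mural cell markers there were at 1826 and 407 CPM and those of antigen-presenting cells at 104.3 and 922.8 CPM, and their part in the Pdgfa ratio was not tested.

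Pdgfb had 83.9 CPM (5489 UMIs) and 77.4 CPM (4682 UMIs), a log2 ratio of 0.12 (0.06 to 0.17). The interval lay above 0 in cluster 6, at 0.32 (0.11 to 0.53), and in cluster 7, at 0.27 (0.10 to 0.43), and crossed 0 in the other 7. Endothelial cells had its highest level, 314 CPM (266 to 368). Clusters 4, 1, 7 and 17, at 119, 114, 107 and 97.7 CPM, followed and did not differ beyond the intervals of their neighbours in that order. Cluster 0, where Pdgfc was highest, had 27.6 CPM of Pdgfb.

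Gene length moved with these differences. Among genes at 5 CPM, the 1373 that span 100 kb or more had a median log2 ratio of 0.15 and 13.0% of them were at least 25% higher, whereas the 1847 under 10 kb had a median of -0.06 and 1.19% were higher. Flt1 (164.4 kb), Nrp1 (146.0 kb), Nrp2 (115.4 kb) and Pdgfc (177.8 kb) are all in the longest class. The central 95% of that class ran from -0.29 to 0.52. Nrp1 and Pdgfc lay above it, Flt1 below it, and Nrp2 near the median. Compartment cells had a median of 19.7% of UMIs from such long genes in β-glucan and 17.8% in PBS cells. When 3160 cells of each library were paired within clusters on this share, the median of long genes became 0.02, and Nrp1 was 0.35, Pdgfc 0.62, Nrp2 0.03 and Flt1 -2.67. That pairing leaves out cluster 17, which has no β-glucan cells.

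**Figure D5:**
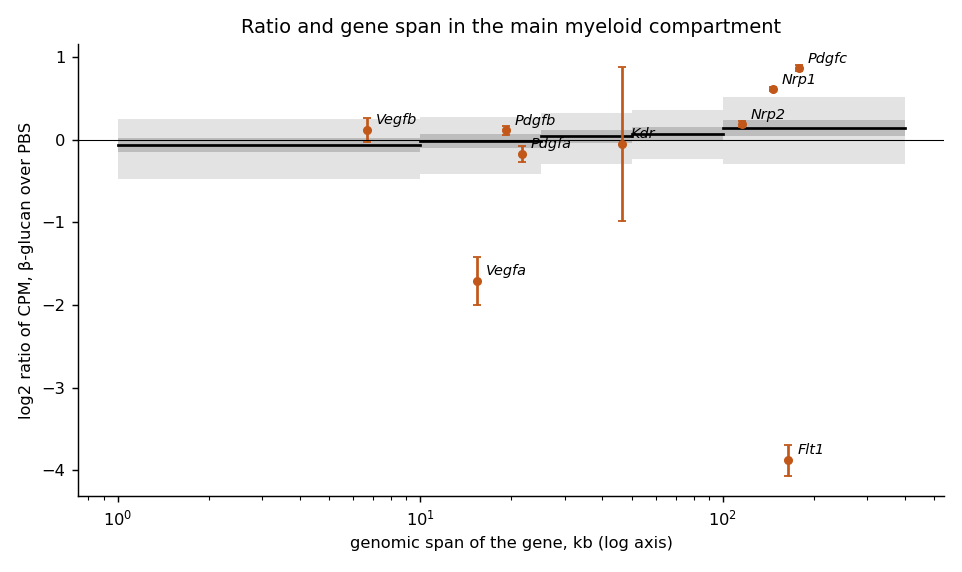
Log2 ratio of CPM (β-glucan over PBS) against the genomic span of each gene (kb, log axis); orange points are the 9 members with 95% counting intervals, black lines the median of all genes at 5 CPM in 5 classes of span, dark and light grey their middle 50% and 95%. The medians climb from -0.06 under 10 kb to 0.15 at 100 kb or more. Pdgfc, Nrp1, Flt1 and Vegfa lie outside the light band of their class, and Vegfa is itself below 5 CPM.

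On the genome (GRCm39), Flt1 lies on chromosome 5 from 147498414 to 147662826 (minus strand), Kdr on chromosome 5 from 76093487 to 76139884 (minus) and Nrp1 on chromosome 8 from 129085085 to 129231082 (plus). Nrp2 lies on chromosome 1 from 62742444 to 62857854 (plus), Vegfa on chromosome 17 from 46327919 to 46343309 (minus) and Vegfb on chromosome 19 from 6958447 to 6965127 (minus). Pdgfa lies on chromosome 5 from 138961758 to 138983435 (minus), Pdgfb on chromosome 15 from 79880009 to 79899181 (minus) and Pdgfc on chromosome 3 from 80943668 to 81121473 (plus). No counted gene overlaps any of the 9 on the same strand, while Nrp2, Vegfb, Pdgfa, Pdgfb and Pdgfc each overlap 1 counted gene on the other strand.

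Other genes of these pathways were read from 5 lists of 49 genes in all, of which 30 reached 5 CPM in the compartment. None of the 4 other ligands or the 3 other receptors did. Pgf, which encodes placental growth factor, a ligand of FLT1, had 5 UMIs in β-glucan and 44 in PBS cells, a log2 ratio of -3.25 (-4.94 to -1.92) at under 1 CPM. Other receptors and ligands were found in other cells: the PDGF receptor genes Pdgfra and Pdgfrb were at 386 and 161 CPM in the stromal cells and at under 1 CPM in either library of the compartment, and Pdgfd was at 868 CPM in the endothelial cells.

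Of 12 semaphorins and plexins that work with neuropilins, 4 were measured, 0 were past the margins, and the median log2 ratio was 0.05, beside 0.03 over all 9811 genes. Plxna2 and Plxna4, plexin A genes, had 0.25 and 0.10, Plxna1 -0.00 and Plxnd1, the semaphorin 3E receptor, -0.12. The signalling list, of adaptors and enzymes downstream of these receptors, had 13 of 14 genes measured and a median of 0.03. Nck2, an adaptor, was the 1 gene counted higher, at 0.43, and 0 were lower, beside 3.83% and 3.09% of all genes. Nck2 spans 125.9 kb, and of genes that span 100 kb or more 13.0% were higher. The part of span in its ratio was not tested. Pik3ca, a catalytic subunit of PI3 kinase, was at 0.31, Shb at -0.00 and the phosphatase gene Ptpn11 at -0.12.

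Of 16 hypoxia response genes 13 were measured, 0 were higher and 5 lower with β-glucan, Slc2a1, Pgk1, Ldha, Bnip3 and Ankrd37, and the median was -0.29, beside 3.09% lower and a median of 0.03 over all genes. Bnip3 and Ankrd37 were each higher with β-glucan in 3 of the 9 clusters, and Pgk1 in 1. Ankrd37 was 5.38 CPM in β-glucan and 13.0 CPM in PBS cells, a log2 ratio of -1.27, and Slc2a1, the glucose transporter, 19.97 and 31.74 CPM, at -0.67. At the other end were Pfkfb3, a regulator of glycolysis, at 0.13 and Arnt at 0.08. Hif1a, which encodes the oxygen-regulated factor itself, was at 0.08. Of the 5 lower genes, Ankrd37 spans 8.81 kb, Ldha 14.2, Pgk1 16.6, Bnip3 20.6 and Slc2a1 30.5 kb. Among all genes, 5.52% were lower under 10 kb, 3.72% from 10 to under 25 kb and 2.22% from 25 to under 50 kb. Vegfa, a textbook target of that factor, had a compartment ratio of -1.71 but was below the level for counting. Whether its ratio is linked to those of the list, or these to span, was not tested.

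For each member, the genes whose levels followed it most closely over the 21 clusters were found among 10982 genes. For Flt1 they were Edn1 (Pearson r = 0.86), Mall (0.77) and Asap2 (0.76), and for Kdr Aplnr (0.98), Podxl (0.97) and C1qtnf9 (0.97), all 6 highest in the endothelial cluster. For Nrp1 they were Srgap2 (0.85), Itm2b (0.85) and Tcn2 (0.84), and for Nrp2 Aplp2 (0.96), Rab11fip5 (0.94) and Gas2l1 (0.94). Rab11fip5 was also nearest to Pdgfc (0.96), and Dhrs3 was close to it as well (0.95). For Pdgfb they were F11r (0.91), Fbxw11 (0.86) and Kank3 (0.84), and for Pdgfa Snx7 (0.92), Pttg1ip (0.88) and Arfgap3 (0.88). Vegfa was followed by Ifrd1 (0.81), Pygl (0.81) and Oaf (0.76), and Vegfb by C330007P06Rik (0.82), Sfmbt1 (0.81) and Lancl1 (0.79).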

How the data were processed

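Synovial CD45+CD11b+ cells of 2 libraries (β-glucan and PBS, 4 pooled mice each) were analysed from the deposited count matrices. Per the labels and the methods, the authors made these UMI counts with Cell Ranger 7.0.0 from 10x 3′ v3.1 libraries on GRCm39 with Ensembl annotation. The labels also list mm10, and whether intronic reads were counted is not given in the sources used here. Of 12956 barcodes, the number of cells the study states, 10249 passed its stated filter (500 genes or more, and mitochondrial UMIs up to 10%).

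Cells were normalised with SCTransform (sctransform 0.4.2, Seurat 5.3.0, R 4.3.3) with 3000 variable genes, of which 2973 remained after the members and list genes had been left out, and clustered with 30 principal components, 20 neighbours and a Louvain resolution of 0.7. Clusters were named from marker lists where at least 3 markers were each found in 25% of cells and no other class led. Names were rebuilt here, so they need not be those of the study. Scrublet called 3 cells, too few to have worked, so no doublets were removed. As alternatives, the cells it called or the 426 cells of highest score were left out. Of the cells of cluster 16, 41.4% were among those 426.

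UMIs were summed per library and cluster, divided by the total and multiplied to CPM. Intervals (95%) are exact Poisson for levels, exact conditional binomial for ratios and Clopper-Pearson for shares, and upper limits for 0 use 3 counts. Depth was 78355957 and 70781891 UMIs in the kept cells. With 1 library per group no p-value was computed. Genes were counted as higher or lower at a CPM ratio of 1.25 or 0.8 with a mean of at least 5 CPM. The ratio and its interval were tested on simulated data. The genes named are the 9 members, the 2 genes with the highest and the 2 with the lowest ratio of each list (all where 4 or fewer were measured), and the 3 genes nearest to each member, of which 1 is not reported here. Other genes named from the lists, among them Pgf, Pdgfra, Pdgfrb, Pdgfd and Hif1a, and the marker Arg1 were chosen after their values had been seen. The members, lists and tests were chosen with earlier results of these data known. Alternatives covered the cell filter, doublets, clustering, scaling (TMM, edgeR 4.0.16), weighting, thinning, pairing on long genes and leaving out each cluster.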

Additional observations from a re-analysis of the deposited data

Results flagged for a closer look

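Nrp2 lay past the margins in opposite directions in 2 clusters of the compartment. Its log2 ratio of β-glucan over PBS was 0.33 (counting interval 0.20 to 0.46) in cluster 7 and -0.37 (-0.49 to -0.26) in cluster 3. Each value rests on 1 library per group, and the difference between the clusters was not tested.

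The barcodes that the cell filter left out numbered 1500 in β-glucan and 1207 in PBS cells. They entered the setting without a cell filter but not the main results, and had a signal of their own. In them Nrp1 was 449 CPM in β-glucan and 247 CPM in PBS cells, a log2 ratio of 0.86 (0.73 to 0.99), and Pdgfc was 276 and 144 CPM, at 0.94 (0.78 to 1.11). Flt1 was lower there with β-glucan, at 23.3 against 48.8 CPM, which is -1.06 on the log2 scale (-1.48 to -0.66). These values pool all barcodes left out, whatever the cell type, and are not limited to the compartment.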

How the results depend on the processing

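No paired analysis was possible because each group was 1 library. Over 28 settings per member, the log2 ratio kept its sign in all 28 for Flt1 (-4.14 to -1.57), Vegfa (-2.01 to -1.13), Nrp1 (0.35 to 0.65), Pdgfc (0.62 to 0.92), Nrp2 (0.03 to 0.23), Pdgfa (-0.24 to -0.06) and Pdgfb (0.05 to 0.14), in 27 for Vegfb (-0.02 to 0.20) and in 19 for Kdr (-0.42 to 0.79). Members counted higher were 2 under every setting run but 1.1-fold, where Nrp2 made them 3. Members counted lower were 2 rather than 1 over all cells of the sort, with totals free of mitochondrial and ribosomal protein genes, without cluster 1, at a minimum of 1 CPM and at 1.1-fold, and 0 without clusters 3 and 17 (chosen after the data were seen) and at a minimum of 50 CPM. Of all genes, 376 were higher and 303 lower. The counts were 593 higher over all cells of the sort, 187 lower with equal weight per cluster, 171 and 194 after pairing on long genes, and 175 lower without clusters 3 and 17. They were 795 and 705 at 1 CPM, 136 and 93 at 50 CPM, 2189 and 1296 at 1.1-fold and 38 and 89 at 1.5-fold. The number of genes measured changes with the CPM limit and the cells used, and is not given for these settings. The counts are therefore not shares, and nothing is read from the member counts beside them. At 1.1-fold the member added as lower was Pdgfa, with a ratio of 0.890. The list genes, 1 higher and 5 lower, became 0 and 2 at 50 CPM, 6 and 8 at 1.1-fold, and 0 and 3 at 1.5-fold. TMM, size factors and trimmed totals moved all ratios by at most 0.019 in size. Without any cell filter a stromal cluster joined the compartment and Flt1 was -2.35. No endothelial cluster formed in that setting. The stromal cluster that joined had 178 CPM of Flt1 in β-glucan and 131 CPM in PBS cells. The main stromal cluster had 18.5 and 17.6 CPM. The part of the joined cluster in the ratio was not tested. With a filter of 1000 genes or more and mitochondrial UMIs up to 5%, the Arg1 cluster had 64 PBS and 17 β-glucan cells, the latter with 0 UMIs of Flt1 and of Arg1. At a resolution of 1 it had 134 PBS cells and 0 β-glucan cells. At a resolution of 0.5, with 20 principal components and without a cell filter no Arg1 cluster formed. With both libraries summed, Flt1 was then highest within the antigen-presenting cells in clusters with 176, 398 and 311 β-glucan and 336, 605 and 529 PBS cells. Its level there was 30.2, 18.3 and 21.3 CPM in β-glucan and 354, 218 and 251.5 CPM in PBS cells. Without a filter, β-glucan cells of the antigen-presenting cluster led by Plac8 and Plcb1 were higher, at 42.4 CPM. Counting error limits Kdr and, in most clusters, Flt1 and Vegfa.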

Other observations

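By CPM, the genes of the other family members were highest in cells outside the compartment. Stromal cells had Vegfc at 65.9 CPM, Vegfd at 40.6 CPM and Pdgfd at 102 CPM, and endothelial cells had Flt4, the gene for VEGF receptor 3, at 63.2 CPM, Pgf at 34.6 CPM and Vegfc at 42.8 CPM, both libraries summed. These cells were few, 229 stromal and 33 endothelial, and the sort was for other cells. The endothelial Pgf level came from 17 UMIs in β-glucan and 0 in PBS cells, and the compartment held 49 Pgf UMIs at 0.389 CPM. Mast cells and basophils had Vegfc at 30.6 CPM and Pdgfrb at 29.8 CPM.

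In the β-glucan library 58.0% of all Flt1 UMIs came from the 21 endothelial cells, and in the PBS library 5.53% came from the 12 endothelial cells. The highest count in any cell was 132 Flt1 UMIs, in a proliferating cell of the PBS library.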
